A study of Mus musculus with 4 samples.

Results

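The 2 libraries compared here are the mouse ovary library labelled as doxorubicin (3 mg/kg) and the library of vehicle controls (PBS or saline). Every cell of theirs was used that had 1000 UMIs or more and no more than 20% of them from mitochondrially encoded genes. Each UMI stands for 1 captured RNA molecule, tagged before amplification. That left 6406 doxorubicin and 8588 control cells, 14994 of the 30523 cells kept in the series, and all 32285 genes of the count matrices were read. UMIs were summed per library over all cells and within cell types gated on marker genes, and are given as CPM, a gene's UMIs per 1000000 UMIs of the sum.

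Mice were dosed from postnatal day 25 with 2 weekly doses of doxorubicin or with vehicle, and ovaries were taken 4 hours after the second dose. Each group was a pool of 5 animals, with a single ovary from every animal, so animals are not told apart. The strain, the genotype and the route of dosing were not given in the sources used here. The other libraries of the series held doxorubicin with recombinant human AMH (anti-Müllerian hormone, 0.75 mg/kg) and AMH alone, and since that pair shares no library with the pair described here, its values stand beside it. There is 1 library a group, so every difference below is between libraries, without a replicate check, and no test between groups was possible. Intervals are at 95% and cover counting error only.

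Doxorubicin is an anthracycline that traps topoisomerase II on DNA and leaves double-strand breaks. Breaks stabilise the transcription factor p53, which raises the transcription of genes that stop the cell cycle (Cdkn1a), feed back on p53 itself (Mdm2), repair DNA or start cell death (Bax). The ovary holds follicles, in which granulosa cells and outer theca cells make steroids around an oocyte, set in a stroma with vessels, smooth muscle and macrophages and covered by a surface epithelium.

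The promoters of 4 of these p53 targets are shown, since their transcripts are the ones followed through every cell type below. Each window runs from 250 bases before to 50 bases after the RefSeq transcription start, on the gene's strand, in build GRCm38.p6. Capitals mark matches to the p53 decamer, the short motif whose paired copies p53 binds. The windows are Cdkn1a at chr17:29090729-29091028 (plus strand, 1 of its 2 windows), Mdm2 at chr10:117710709-117711008, Ccng1 at chr11:40755237-40755536 and Bax at chr7:45466849-45467148 (all minus strand).
Cdkn1a: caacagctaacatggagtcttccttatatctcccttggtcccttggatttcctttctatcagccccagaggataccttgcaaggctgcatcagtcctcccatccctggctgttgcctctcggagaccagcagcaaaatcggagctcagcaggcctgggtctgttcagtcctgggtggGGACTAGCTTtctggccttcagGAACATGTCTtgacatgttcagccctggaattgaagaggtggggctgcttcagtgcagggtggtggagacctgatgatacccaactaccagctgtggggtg
Mdm2: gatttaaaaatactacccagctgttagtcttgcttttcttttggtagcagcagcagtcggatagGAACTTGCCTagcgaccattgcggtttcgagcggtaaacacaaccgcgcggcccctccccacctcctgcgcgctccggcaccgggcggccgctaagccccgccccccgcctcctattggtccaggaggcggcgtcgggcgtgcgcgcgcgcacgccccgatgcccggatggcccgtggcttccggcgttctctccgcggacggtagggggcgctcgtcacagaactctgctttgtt
Ccng1: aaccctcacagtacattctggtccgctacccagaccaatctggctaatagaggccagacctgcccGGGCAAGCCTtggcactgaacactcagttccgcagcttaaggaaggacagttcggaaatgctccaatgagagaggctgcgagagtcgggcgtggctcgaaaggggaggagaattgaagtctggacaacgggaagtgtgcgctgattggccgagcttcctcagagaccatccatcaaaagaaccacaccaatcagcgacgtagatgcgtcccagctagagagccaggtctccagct
Bax: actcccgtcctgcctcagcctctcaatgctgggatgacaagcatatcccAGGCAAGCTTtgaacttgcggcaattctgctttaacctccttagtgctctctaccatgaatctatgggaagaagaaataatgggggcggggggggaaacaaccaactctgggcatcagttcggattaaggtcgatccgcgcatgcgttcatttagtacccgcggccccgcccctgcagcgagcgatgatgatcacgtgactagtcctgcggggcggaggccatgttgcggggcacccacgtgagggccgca
The decamers of Cdkn1a began at positions -73 and -51 from the start, and those of Mdm2, Ccng1 and Bax at -186, -185 and -201. Of the 44 genes on the 3 lists of p53 targets used below, 34 had a window in the RefSeq table, and 13 of them (38.2%) held at least 1 decamer on either strand, against 2582 of all 27025 genes with a window (9.55%). Cdkn1a was the 1 listed gene with 2 decamers spaced by at most 13 bases, an arrangement seen in 0.074% of all genes with a window. A match describes the letters of the window and does not show that p53 binds there.

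The libraries were of like quality. Median depth was 13722 UMIs and 4017 genes per control cell and 15491.5 UMIs and 4275.5 genes per doxorubicin cell, and the median mitochondrial share was 4.89% and 4.97%. Of all barcodes, 400 control and 481 doxorubicin barcodes were under 1000 UMIs, and 214 and 254 others were over 20% mitochondrial UMIs. The libraries shared 8 barcodes. Free RNA was read from erythroid-like cells, in which haemoglobin gave 63.4% of the UMIs in control and 73.6% in doxorubicin. After each cell was thinned to 2000 UMIs, 1.92% of them in control and 3.45% in doxorubicin had a Cdkn1a UMI (6.15% and 10.9% unthinned), and their sums held 5 and 23 Cdkn1a UMIs, a level of 10.9 and 47.5 CPM.

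Cells were gated by 16 marker lists, and the names carry "-like" because they rest on those markers alone. Granulosa-like cells made up 21.9% of control cells (interval 21.0 to 22.8) and 26.8% of doxorubicin cells (25.7 to 27.9). Stroma-like cells made up 32.6% and 32.7%, and theca-like cells 10.4% and 9.34%. Smooth muscle or pericyte-like cells were at 7.84% in control (7.28 to 8.43) and 5.34% in doxorubicin (4.80 to 5.92). Macrophage-like cells were at 2.21% (190 cells; 1.91 to 2.55) and 1.30% (83 cells; 1.03 to 1.6), against 1.93% with AMH and 1.05% with doxorubicin+AMH. T or NK lymphocyte-like cells numbered 54 and 19. Surface epithelial-like cells (106 and 87) and blood endothelial-like cells (195 and 138) had shares whose intervals overlapped between the libraries.

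Among types with cells in both libraries, oviduct-type epithelial cells differed most as a ratio of shares, and granulosa-like cells in percentage points (4.94). For the oviduct-type cells, the control library held 122 (1.42%) and the doxorubicin library 1 (0.0156%), while the doxorubicin+AMH library held 18 (0.258%) and the AMH library 162 (1.90%). The oviduct is a separate organ that lies against the ovary. No gate call was reached for 17.9% of control and 18.9% of doxorubicin cells. Oocyte-like cells numbered 2 and 4, so oocytes are not described.

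**Figure D1:**
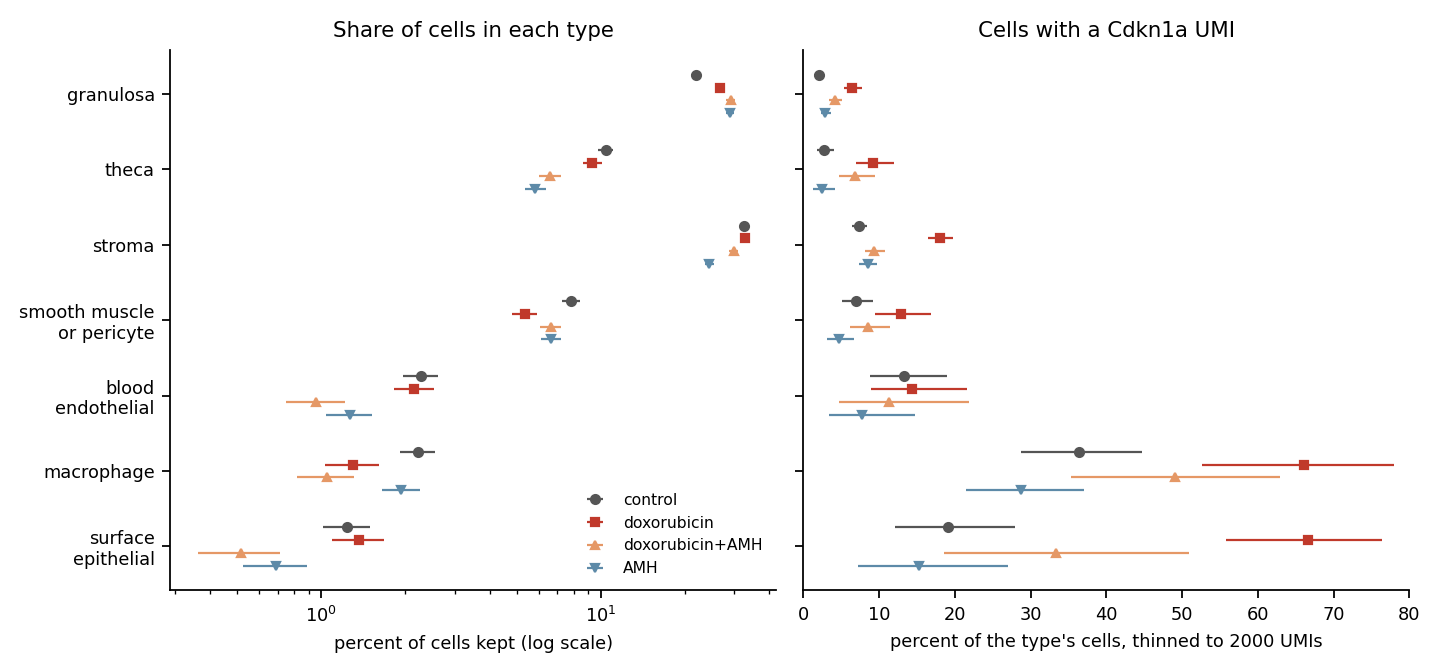
Left, the percent of cells of each marker-gated type (log axis, exact 95% interval) in the libraries; right, the percent of cells of each type with at least 1 Cdkn1a UMI after thinning to 2000 UMIs. Granulosa-like cells are at 21.9% in control and 26.8% in doxorubicin, and Cdkn1a-positive cells are more frequent with doxorubicin in all 7 types, with overlapping intervals in blood endothelial-like cells.

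Over all cells few genes differed. Of the 7039 genes whose mean reached 20 CPM, 13 (0.185%) were past 1.5-fold higher with doxorubicin and 31 (0.44%) past 1.5-fold lower, on the scale of log2 of CPM plus 5. The 3 highest with a name are p53 targets. Cdkn1a (ENSMUSG00000023067; chromosome 17, 29090976 to 29100727 in GRCm38), the cyclin-dependent kinase inhibitor p21, had 31.8 CPM in control and 142 CPM in doxorubicin, a ratio of 4.46 (4.33 to 4.59). Eda2r (ENSMUSG00000034457; chromosome X, 97333840 to 97377216), a receptor of the tumour necrosis factor receptor family, had 7.21 and 34.9 CPM. Ccng1 (ENSMUSG00000020326; chromosome 11, 40748552 to 40755311), which encodes cyclin G1, had 15.9 and 48.1 CPM.

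Phlda3, a repressor of Akt signalling, had 19.5 and 42.3 CPM, and Ckap2, a spindle protein, 16.3 and 32.9 CPM; both are p53 targets and among the 12 highest. Ckap2 is uncertain, since the end of its transcript shares sequence with 20 other genes of the files. Gria3, a glutamate receptor subunit, had 37.6 and 62.1 CPM, and Exoc4, a subunit of the exocyst that tethers secretory vesicles, 176 and 271 CPM. Of granulosa genes, Amh, the hormone of growing follicles, had 57.4 and 93 CPM and Ihh, a hedgehog ligand, 14.6 and 25.8 CPM. Wnt4, a signalling ligand of the female gonad, had 70.2 and 109 CPM, and Rasl10a, a small GTPase, 33.0 and 52.2 CPM. Cell types were then given the same weight in both libraries, leaving out types with few cells in either, such as oviduct-type cells. With that weighting these 4 genes were under the fold, at log2 ratios of 0.50 for Amh, 0.53 for Ihh, 0.51 for Wnt4 and 0.45 for Rasl10a. Gria3 was under it, at 0.44, with each cell weighted equally. The pair with AMH gave the lesser differences of 31.8 and 48.4 CPM for Cdkn1a, 8.16 and 15.3 for Eda2r and 17.1 and 22.9 for Ccng1 (AMH, then doxorubicin+AMH), and 168 and 182 CPM for Exoc4.

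Fabp4, a fatty acid carrier of fat cells and capillaries, was the remaining one of the 12 highest, with 23.2 CPM in control and 55.8 CPM in doxorubicin. Only 10 cells gave 78.0% of its UMIs in doxorubicin and 67.5% in control. With AMH it went the other way, at 27.0 CPM with AMH and 14.1 CPM with doxorubicin+AMH.

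Of the 12 lowest genes, 5 were genes of oviduct-type cells and 4 were MHC class II genes, and the other 3 were Mecom, Glis3 and Synpo2. Dcpp3 had 93.6 CPM in control (16592 UMIs) and 0.0353 CPM in doxorubicin (5 UMIs), and A2ml1, a protease inhibitor, 76.9 CPM (13629 UMIs) and 0.0494 CPM (7 UMIs). Both, with Ecrg4, Plet1 and Emb, are among the 10 genes highest in oviduct-type epithelial cells over the other types. When cell types were given the same weight in both libraries, the log2 ratio of Dcpp3 went from -4.29 to -0.68, that of Ecrg4 from -2.67 to -0.14 and that of Emb from -1.85 to -0.45. Mecom went from -1.12 to -0.14, Glis3 from -1.01 to -0.22, A2ml1 from -4.02 to -1.37 and Plet1 from -2.71 to -0.95. All 7 genes lay closer to 0 with equal weights, and Ecrg4, Emb, Mecom and Glis3 were no longer past the fold. The sums with equal weights left out oviduct-type cells altogether (122 in control and 1 in doxorubicin). The moves of the 5 genes of these cells toward 0 thus follow from that step. In control, 10 cells gave 92.6% of the Dcpp3 UMIs.

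The MHC class II genes were lower together. Cd74, the invariant chain, had 106 CPM in control and 32.5 CPM in doxorubicin, H2-Ab1 43.9 and 10.4 CPM, H2-Aa 43.1 and 10.6 CPM and H2-Eb1 49.1 and 13.4 CPM. These proteins present antigen on macrophages, dendritic cells and B cells. With equal weights for the cell types their log2 ratios were -1.27 for Cd74, -1.40 for H2-Ab1, -1.33 for H2-Aa and -1.26 for H2-Eb1. Cells that reached no gate call, which have these genes among their 10 highest, counted as a single type there. A difference in the kinds of cells within that type is not adjusted for, and its part was not tested. In the doxorubicin library 10 cells gave 61.9% of the H2-Aa UMIs. The AMH pair differed less, with 87.1 CPM of Cd74 in AMH and 72.1 CPM in doxorubicin+AMH. Synpo2, an actin-bundling protein of smooth muscle, had 44.0 and 19.3 CPM and a log2 ratio of -0.75 with equal weights.

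Within cell types the share of genes past 1.5-fold was highest in macrophage-like and surface epithelial-like cells. In doxorubicin over control, 0.0898% of 6681 genes were past higher in granulosa-like cells, 0.334% of 6281 in theca-like cells, 0.298% of 6708 in stroma-like cells, 0.496% of 6658 in smooth muscle or pericyte-like cells, 0.3% of 6996 in blood endothelial-like cells, 4.5% of 6463 in macrophage-like cells and 4.29% of 7180 in surface epithelial-like cells. Past lower were 0.0748%, 0.223%, 0.0447%, 1.79%, 0.915%, 6.31% and 3.16% in the same order of types. Macrophage-like cells were the shallowest sum, with 762912 UMIs in doxorubicin. Surface epithelial-like cells had 3114352 UMIs in doxorubicin, close to the 3023106 of blood endothelial-like cells.

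**Figure D2:**
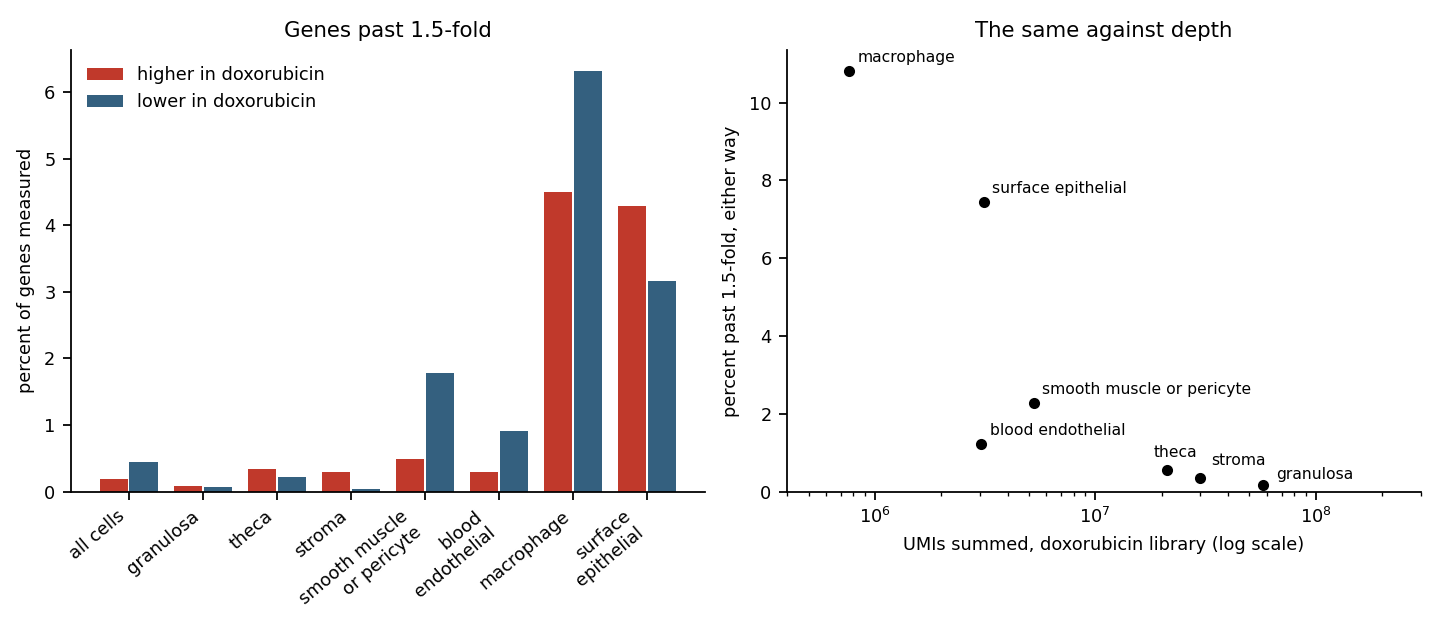
Left, the percent of measured genes past 1.5-fold higher or lower in doxorubicin over control by cell type; right, the percent past either way against the summed doxorubicin UMIs of the type (log axis). Surface epithelial-like cells stand at 7.45% and blood endothelial-like cells at 1.21% at nearly the same depth.

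Trp53, which encodes p53 and is regulated mainly at the level of the protein, had 72.6 CPM in control and 74.9 CPM in doxorubicin. In the 7 types the ratio of doxorubicin to control lay between 0.867 and 1.25. The p53 targets were described by 44 genes in 3 lists (arrest and feedback, cell death, and repair, metabolism and other). Over all cells 5 of the 22 that passed the minimum of 20 CPM were past 1.5-fold higher, against 0.185% of all genes, and their median log2 ratio was 0.10, against -0.02 for all genes measured.

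The count differed by cell type. It was 2 of 16 in granulosa-like cells, 4 of 18 in theca-like cells, 9 of 23 in stroma-like cells, 3 of 21 in smooth muscle or pericyte-like cells, 3 of 26 in blood endothelial-like cells, 11 of 25 in macrophage-like cells and 24 of 33 in surface epithelial-like cells. The shares of all genes past higher, given above for each type, were at most 4.5%. The median log2 ratio of the targets was 0.15, 0.16, 0.12, 0.21, 0.07, 0.43 and 1.58 in the same order of types. For doxorubicin+AMH over AMH it was 0.04, 0.08, 0.07, 0.11, 0.05, 0.40 and 0.67. A target that passes the minimum only because it is high in the doxorubicin library counts among these, so the counts describe the genes measured and not the whole lists. In bulk sums, more cells with the transcript and more transcript per cell cannot be told apart without the cell counts that follow.

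**Figure D3:**
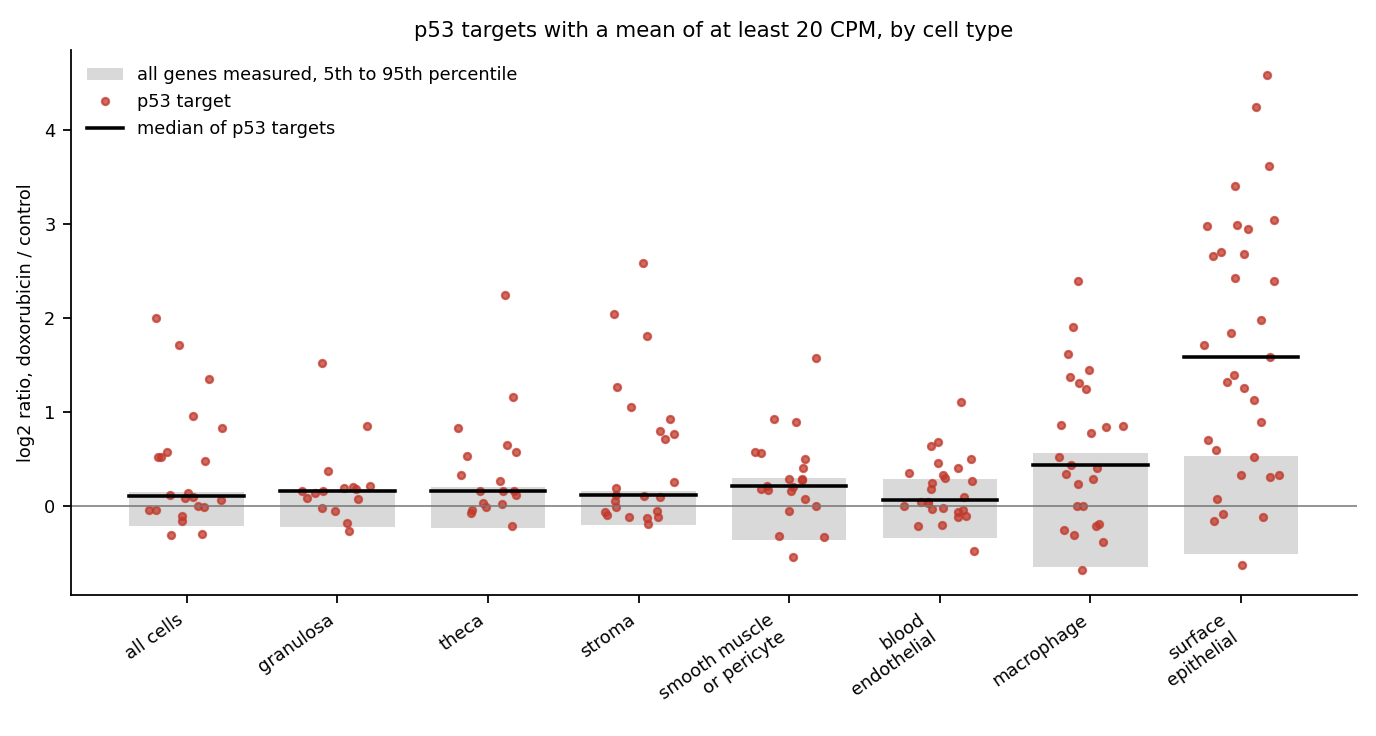
Each dot is the log2 ratio of doxorubicin to control of 1 measured p53 target in the cell type on the axis; the grey box spans the 5th to 95th percentile of all genes measured there and the black line is the targets' median. The median of surface epithelial-like cells, 1.58, is the highest, and that of blood endothelial-like cells, 0.07, the lowest.

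Cdkn1a was higher with doxorubicin in each of the 7 types. It had 11.0 and 40.8 CPM in granulosa-like cells of control and doxorubicin, 11.4 and 72.9 CPM in theca-like cells, 39.2 and 126 CPM in smooth muscle or pericyte-like cells, and 67.6 and 111 CPM in blood endothelial-like cells. The ratio was lowest in blood endothelial-like cells (1.64, interval 1.41 to 1.92) and highest in surface epithelial-like cells (8.45, 7.71 to 9.26). After thinning, 2.04% of control and 6.43% of doxorubicin granulosa-like cells had a Cdkn1a UMI (19.5% and 35.1% unthinned). In theca-like cells it was 2.71% and 9.22%, in stroma-like cells 7.39% and 18.1%, and in smooth muscle or pericyte-like cells 6.97% and 12.8%. In blood endothelial-like cells it was 13.2% (8.75 to 18.9) and 14.4% (8.89 to 21.6), which this number of cells cannot tell apart. The granulosa-like and theca-like shares of control lay near the 1.92% of erythroid-like cells. The doxorubicin shares of both lay within the interval of erythroid-like cells (0.42 to 11.9). The granulosa-like levels of 11.0 and 40.8 CPM likewise lay near the 10.9 and 47.5 CPM of erythroid-like cells. Erythroid-like cells were shallower, at a median of 5939 UMIs in control and 6623 in doxorubicin, against 24811 and 25621.5 in granulosa-like cells. Thinned shares and CPM therefore do not compare free RNA per cell. Unthinned shares, which rise with depth, were lower in erythroid-like than in granulosa-like cells in both libraries. The part of free RNA in the granulosa-like and theca-like values was not tested.

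**Figure D4:**
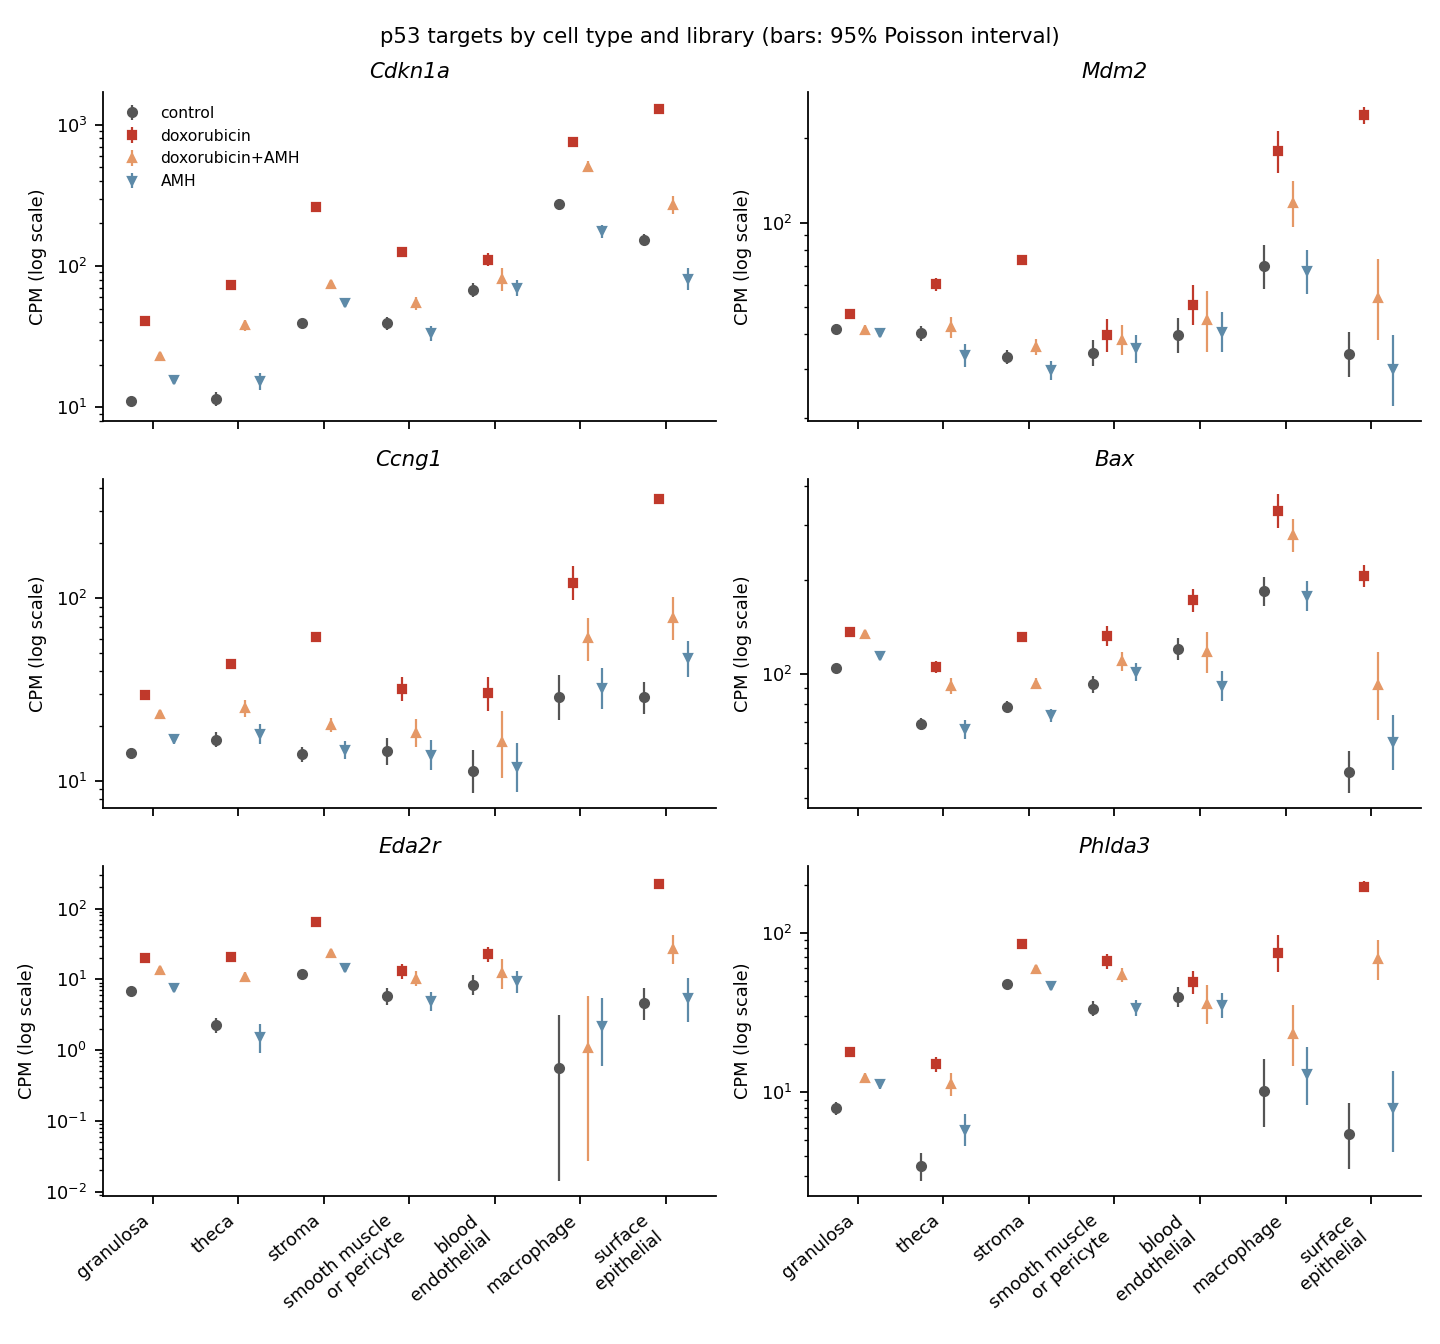
Levels of Cdkn1a, Mdm2, Ccng1, Bax, Eda2r and Phlda3 in CPM (log axis, exact Poisson 95% bars) in the 7 cell types and 4 libraries; a level of 0 is not drawn. The doxorubicin point lies above the control point for Cdkn1a in every type, from 1.64-fold in blood endothelial-like to 8.45-fold in surface epithelial-like cells.

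The surface epithelium, a single layer of mesothelial cells that is broken and repaired at each ovulation, held the most p53 targets past 1.5-fold. Its 6 markers summed to 3182 CPM in control and 2920 CPM in doxorubicin, and its median depth was 18450.5 and 19734 UMIs per cell. All 9 measured targets of the cell death list, which holds 12 genes, were past 1.5-fold higher, against 4.29% of all genes. So were 7 of 12 measured of the arrest and feedback list and 8 of 12 of the repair, metabolism and other list. In control, Eda2r, Bbc3, Aen, Dcxr and Apaf1 of the cell death list were under 20 CPM. They passed the minimum only through the doxorubicin library, as did Zmat3, Phlda3, Ckap2 and Gdf15 of the other lists. The 44 targets together took 0.209% of the UMIs in control and 0.603% in doxorubicin.

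Among the arrest and feedback genes, Cdkn1a had 154 CPM in control, against 1300.4 CPM with doxorubicin, 271 CPM with doxorubicin+AMH and 81.1 CPM with AMH alone. Ccng1 had 28.7, 351, 78.0 and 47.0 CPM in the same order of libraries, and Mdm2, the ubiquitin ligase that degrades p53, 33.9, 241, 53.9 and 29.9 CPM. The doxorubicin library was the highest and the doxorubicin+AMH library the second for all 3 genes. Zmat3, an RNA-binding zinc finger protein, had 7.25, 91.2, 11.3 and 7.32 CPM. Trp53inp1, a p53-induced nuclear protein, had 24.1, 219, 68.0 and 27.5 CPM.

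Eda2r, Bax and Bbc3 of the cell death list had that order of libraries too. Eda2r had 4.64 CPM in control, against 226 CPM with doxorubicin, 26.9 CPM with doxorubicin+AMH and 5.49 CPM with AMH alone, a ratio of 48.7 for doxorubicin over control (29.8 to 85.6). Bax, which opens the outer mitochondrial membrane, had 48.4, 206, 92.1 and 60.4 CPM, and Bbc3 (Puma), which frees Bax from its inhibitors, 6.67, 56.2, 21.3 and 5.49 CPM. Aen, an apoptosis-enhancing nuclease, had 11.0 CPM in control and 80.6 CPM in doxorubicin. Dcxr, a carbonyl reductase placed on this list as a p53 target, had 5.51 and 63.3 CPM. The other 4 measured, named after their values were seen, were Perp (21.2 and 80.6 CPM), Pmaip1 (32.5 and 84.1 CPM), Apaf1 (14.5 and 37.6 CPM) and Fas (22.9 and 40.5 CPM).

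Of the repair, metabolism and other list, Phlda3 (ENSMUSG00000041801; chromosome 1, 135766119 to 135769136) had 5.51 CPM in control, against 194 CPM with doxorubicin, 68.0 CPM with doxorubicin+AMH and 7.93 CPM with AMH alone, a ratio of 35.1 (22.3 to 58.8). Ckap2 had 3.77, 102, 11.3 and 1.22 CPM. Gdf15, a stress-induced hormone of the TGF-beta family, had 1.16, 43.7, 1.42 and 1.22 CPM, so it stood apart in the doxorubicin library only. Ephx1, an epoxide hydrolase, had 31.0, 124, 65.2 and 33.6 CPM. Pltp, a phospholipid transfer protein, was the listed gene past 1.5-fold lower, with 28.1 CPM in control and 16.4 CPM in doxorubicin. Gria3, which is on no list, had 6.38, 138, 39.7 and 20.1 CPM, and Exoc4 had 167, 954, 347 and 147 CPM.

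A larger share of the doxorubicin cells held these transcripts. After thinning, 66.7% of doxorubicin cells (55.7 to 76.4) and 19.0% of control cells (12 to 27.9) had a Cdkn1a UMI, against 33.3% with doxorubicin+AMH and 15.3% with AMH. A Ccng1 UMI was seen in 47.1% of doxorubicin and 6.67% of control cells, a Phlda3 UMI in 33.3% and 2.86%, an Eda2r UMI in 31.0% and 0.952%, and an Exoc4 UMI in 82.8% and 19.0%. In erythroid-like cells, read for free RNA at a median depth of 6623 UMIs in doxorubicin and 5939 in control, the thinned shares were 3.45% and 1.92% for Cdkn1a, 1.72% and 0% for Ccng1, 3.45% and 1.92% for Phlda3, 0% and 0% for Eda2r and 5.17% and 5.77% for Exoc4. The control shares of Ccng1, Phlda3 and Eda2r thus lay within the erythroid-like intervals (up to 6.85, 10.3 and 6.85), and the doxorubicin shares of all 5 genes above them. Unthinned, 89.7% and 67.0% of cells had Cdkn1a. The 10 cells with most Cdkn1a gave 51.4% of its UMIs in doxorubicin and 50.7% in control. Of the 308 genes past 1.5-fold higher in these cells, 248 had a promoter window, and 41 of those (16.5%) held a p53 decamer, against 503 of 5765 (8.73%) of all genes measured there. The AMH libraries held only 36 (doxorubicin+AMH) and 59 (AMH) such cells.

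For genes that act before and beside p53, the counts past the fold were too small to set apart from the share over all genes. Of 9 measured p53 pathway regulators, 1 was past 1.5-fold higher, where 4.29% of all genes were, Mdm4, a p53 inhibitor, with 56.8 CPM in control and 102 CPM in doxorubicin, and their median was -0.21. None of 11 DNA repair genes was past in either direction (median -0.29), where 3.16% of all genes were past lower. With a minimum of 50 CPM the DNA repair median was 0.11. The all-gene median in these cells was -0.05.

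Inflammatory and interferon genes were higher in the same surface epithelial-like cells. Of 10 measured genes of the NF-kappaB and inflammation list, 6 were past 1.5-fold higher, where 4.29% of all genes measured in these cells were, and the median was 0.98, against -0.23 for doxorubicin+AMH over AMH. Ccl2, a monocyte chemokine, had 13 CPM in control and 94.1 CPM in doxorubicin, but 1 cell gave 41.3% of its doxorubicin UMIs. Cxcl10, an interferon-induced chemokine, had 53.4 and 253 CPM, with 32.1% of its doxorubicin UMIs in 1 cell and 81.2% in 10 cells. Cxcl1, a neutrophil chemokine, had 33.1 and 90.9 CPM, and Nfkb1, a subunit of the factor itself, 127 and 309 CPM. Of 15 interferon response genes 8 were past higher, against the same 4.29% (median 0.77, and 0.45 for the AMH pair). Among the antiviral genes of that list, Ifit3 had 9.86 and 95.4 CPM, Rsad2 22.3 and 95 CPM and Ifit1 38.3 and 134 CPM, while Irf7, a regulator of interferon, had 18.3 and 62.9 CPM. Ifit3 shares transcript sequence with 1 other gene of the files.

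Other genes past the fold in these cells included Abcb1b, a P-glycoprotein that pumps anthracyclines out of cells, with 174 CPM in control and 449 CPM in doxorubicin (285 with doxorubicin+AMH and 207 with AMH). Gclc, the enzyme that limits glutathione synthesis, had 73.4 and 176 CPM, and Ier5, an immediate early gene, 50.5 and 148 CPM. Sesn2, a stress-induced regulator of mTORC1, had 5.22 and 60.4 CPM. Abcb1b shares transcript sequence with 2 other genes of the files.

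The lowest genes of the surface epithelial-like cells rested on few cells. Edn1, the vasoconstrictor endothelin, had 166 CPM in control and 5.78 CPM in doxorubicin, but 1 control cell gave 54.7% of its UMIs and 10 cells 98.8%. Svs5, a secretory protein, had 190 and 54.3 CPM with 31.8% of control UMIs in 1 cell, and Klk1, a kallikrein, 108 and 36.9 CPM with 27.1% in 1 cell. Clu, the chaperone clusterin, had 732 CPM in control, against 290 CPM with doxorubicin, 512 CPM with doxorubicin+AMH and 696 CPM with AMH alone. Markers of other types in the gate also differed: granulosa markers summed to 772 and 331 CPM, smooth muscle markers to 253 and 79.6 CPM, oviduct-type markers to 998 and 684 CPM and stroma markers to 1745 and 2210 CPM. Their part in these results was not tested.

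In stroma-like cells, the fibroblast-like cells between follicles, 20 genes were past 1.5-fold higher and 3 lower, and 9 of the 20 were listed p53 targets. Cdkn1a had 39.6 CPM in control, against 261 CPM with doxorubicin, 74.7 CPM with doxorubicin+AMH and 54.6 CPM with AMH alone. Eda2r had 12, 64.6, 23.2 and 14.3 CPM, Ckap2 20.6, 56.6, 24.5 and 13.1 CPM, and Trp53inp1 35.3, 71.7, 33.8 and 32.8 CPM. The order seen in the surface epithelium, with doxorubicin the highest and doxorubicin+AMH the second, held for Cdkn1a, Eda2r and Ckap2 but not for Trp53inp1, where the 3 other libraries lay close together. The other targets past the fold were Ccng1, Mdm2, Phlda3 (47.9 and 84.5 CPM), Ei24 (43.3 and 78.8 CPM) and Bax.

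Exoc4 had 173 CPM in control and 345 CPM in doxorubicin stroma-like cells, against 178 CPM with doxorubicin+AMH and 147 CPM with AMH. Over the 7 types its ratio of doxorubicin to control was 1.18 in granulosa-like, 1.55 in theca-like, 2.00 in stroma-like, 1.32 in smooth muscle or pericyte-like, 1.20 in blood endothelial-like, 2.14 in macrophage-like and 5.70 in surface epithelial-like cells. Gclc had 72.3 and 114 CPM and was under the fold, at 0.47, with each cell weighted equally. Among the lowest stromal genes were Lsamp, a neural adhesion molecule, with 104 and 64.0 CPM, Asb4 with 68.0 and 45.0 CPM, and Ank2, an ankyrin, with 243 and 167 CPM. The S phase, G2/M and DNA repair lists had medians of -0.05, -0.02 and -0.06. None of their members was past the fold, where 0.298% of all genes were past higher and 0.0447% lower.

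Macrophage-like cells, which clear dying cells, had 11 of 25 p53 targets past 1.5-fold higher and 1 lower. Of all genes measured in this type, 4.5% were past higher and 6.31% lower. Cdkn1a had 273 CPM in control, against 754 CPM with doxorubicin, 504 CPM with doxorubicin+AMH and 176 CPM with AMH alone, and 36.4% of control (28.8 to 44.6) and 66.1% of doxorubicin cells (52.6 to 77.9) had a UMI after thinning. Phlda3 had 10.2, 74.7, 23.2 and 13 CPM, Ccng1 28.9, 122, 60.2 and 32.4 CPM, and Mdm2 69.7, 180, 117 and 67.0 CPM. Doxorubicin was again the highest and doxorubicin+AMH the second for these 4 genes. Gdf15 had 106, 282, 332 and 212 CPM, with doxorubicin+AMH the highest. Ei24 had 23.2 and 81.3 CPM in control and doxorubicin, and Bax 184 and 333 CPM. Eda2r had no UMI in the doxorubicin macrophage-like cells. In doxorubicin 10 cells gave 77.4% of the Ei24, 73.1% of the Ccng1, 64.2% of the Mdm2 and 53.4% of the Cdkn1a UMIs, and 1 cell 24.2%, 24.7%, 21.9% and 9.22%.

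Several other macrophage genes rested on few cells. Ly6c2, a monocyte surface protein, had 24.4 and 97.0 CPM, and Fcna, a ficolin, 31.7 and 122 CPM, but all doxorubicin UMIs of both came from at most 10 cells. Cd209f, a lectin, had 325 UMIs in control and 1 in doxorubicin, from 15 of 190 control cells. Socs3, a feedback inhibitor of cytokine signalling, had 99.8 and 17.0 CPM, and Il10, an anti-inflammatory cytokine, 89.0 and 15.7 CPM. A Socs3 UMI was seen in 33.2% of control and 12% of doxorubicin macrophage-like cells, unthinned and with no erythroid-like share beside it. H2-Aa was seen in 50.3% of control (42.1 to 58.6) and 18.6% of doxorubicin macrophage-like cells (9.69 to 30.9) after thinning, against 54.5% with doxorubicin+AMH and 54.0% with AMH, and 0% and 1.72% in erythroid-like cells of control and doxorubicin. Of 17 NF-kappaB and inflammation genes, 2 were past higher and 5 lower (median -0.34), where 4.5% and 6.31% of all genes measured in these cells were. Of these, Ccl2 had 373 and 747 CPM, and Cxcl1 85.6 and 13.1 CPM.

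Extracellular matrix genes, which macrophages are not known for, had 8 of 12 measured members past 1.5-fold lower, 2 past higher (Fn1 and Col5a2) and a median of -1.02 in these cells, in a type where 6.31% of all genes were past lower. Timp3, a protease inhibitor bound to matrix, had 53.8 and 5.24 CPM, Col3a1 132 and 40.6 CPM, Col1a1 102 and 31.5 CPM and Sparc 153 and 52.4 CPM. Lama2, a laminin chain, had 90.1 and 11.8 CPM. The 6 stroma markers summed to 324 CPM in control and 127 CPM in doxorubicin, each lower with doxorubicin, and the 8 granulosa markers to 181 and 464 CPM. Inhba, a granulosa activin subunit, had 9.63 and 69.5 CPM, but its log2 ratio turned from 2.35 to -0.14 under a stricter gate (a score of at least 0.3 and 2 times the next). The part of RNA from those cell types in these differences was not tested.

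Granulosa-like cells, the type with the deepest sums (63099142 and 57514305 UMIs), had 6 genes past 1.5-fold higher and 5 lower. Beside Cdkn1a, the p53 target past the fold was Ccng1, with 14.1 CPM in control, against 29.5 CPM with doxorubicin, 23.1 CPM with doxorubicin+AMH and 16.9 CPM with AMH alone. Mdm2 had 41.7, 47.0, 41.3 and 40.5 CPM, and Bax 104, 136, 134 and 114 CPM, so both were under the fold. Wnt4 had 73.3, 111, 37.2 and 51.2 CPM, Aard 43.8, 62.8, 12.8 and 13.6 CPM, and Rasl10a 79.7, 112, 110 and 95.4 CPM. Levels of Wnt4 and Aard were lower in both AMH libraries than in both others.

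The follicle list, with hormones and enzymes of granulosa cells, had 1 of 12 measured members past 1.5-fold higher, Ihh, with 36.5 and 58.1 CPM, where 0.0898% of all genes measured in these cells were. Its median was 0.21, with 7 members above 0 and 5 below. Amh had 145 and 212 CPM. Among the lowest, Cntn4, a neural adhesion molecule, had 139 and 88.5 CPM, and Ctnna2, a catenin, 252 and 166 CPM. Both were under the fold with each cell weighted equally. Hist1h2ap, a histone whose transcript shares sequence with 18 other genes of the files, had 81.4 and 35.5 CPM. Cell cycle lists did not stand apart: the G2/M median was -0.06 over 25 genes, and a Mki67 UMI, a mark of cycling cells, was seen in 12.4% of control and 10.3% of doxorubicin cells after thinning (10.9 to 14.0 and 8.92 to 11.9), against 1.92% and 0% of erythroid-like cells.

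Theca-like cells, the androgen-making cells of the follicle wall, had a Cdkn1a ratio of 6.37 (5.65 to 7.19), with 38.1 CPM for doxorubicin+AMH and 15.3 CPM for AMH. Aen had 14.0 and 28.8 CPM, Ccng1 16.8 and 43.7 CPM, and Trp53inp1 57.0 and 92.1 CPM. These 4 were the targets past the fold. Vcam1, a cell adhesion molecule, had 34.9 CPM in control, against 71.0 CPM with doxorubicin, 130 CPM with doxorubicin+AMH and 140 CPM with AMH alone, and Cox7a1, a subunit of cytochrome oxidase, 39.0, 73.7, 89.3 and 92.1 CPM. Both were thus higher in each of the other libraries than in control.

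Some transcripts of dividing cells were past 1.5-fold higher in theca-like cells of the doxorubicin library. Top2a, topoisomerase II alpha and a target of the drug, had 18.9 CPM in control and 51.8 CPM in doxorubicin, Ube2c, a mitotic ubiquitin enzyme, 9.39 and 36.7 CPM, Hist1h1b 22.3 and 60.4 CPM, and Hmgb2 61.3 and 111 CPM. In doxorubicin 10 cells gave 63.3% of the Top2a UMIs, and in control 68.4%. Only 3 of the 32 G2/M genes passed the minimum in these cells, the third being Smc4, with 65.4 and 70.3 CPM, and Top2a and Ube2c were under 20 CPM in control, so both passed it only through the doxorubicin library. None of 7 measured S phase genes was past the fold, where 0.334% of all genes were past higher and 0.223% lower. The median of the S phase genes was 0.02. Mki67 was seen in 0.902% of control and 2.13% of doxorubicin theca-like cells after thinning, with overlapping intervals (0.390 to 1.77 and 1.1 to 3.69). Pde10a, a phosphodiesterase, had 775, 330, 1343.9 and 942 CPM, Grm7, a glutamate receptor, 221, 108, 485 and 426 CPM, and Pde7b 115, 60.1, 227 and 218 CPM, so the doxorubicin library was the lowest for each. Srd5a1, a steroid 5 alpha-reductase, had 189 and 129 CPM, and the median of 11 steroid synthesis genes was -0.06.

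Smooth muscle or pericyte-like cells had 33 genes past higher and 119 (1.79%) past lower. Ano4, an anoctamin, had 278 CPM in control, against 38.7 CPM with doxorubicin, 73.4 CPM with doxorubicin+AMH and 309 CPM with AMH alone. Esr1, the oestrogen receptor alpha, had 272, 52.4, 80.6 and 337 CPM, Pgr, the progesterone receptor, 114, 17.3, 22.3 and 174 CPM, and Nlgn1, a neuroligin, 194, 39.4, 34.5 and 261 CPM. Postn, the matrix protein periostin, had 146, 45.1, 55.9 and 147 CPM. All 5 were low in both doxorubicin libraries and high in both others, as were the numbers of oviduct-type cells. Markers of other types in the gate had that pattern too: the 5 oviduct-type markers summed to 30.1, 5.91, 3.92 and 25.1 CPM and the 6 lymphatic endothelial markers to 41.9, 22.9, 18.5 and 52.4 CPM (control, doxorubicin, doxorubicin+AMH, AMH). A Pgr UMI was seen in 12.6% of control (10.1 to 15.3) and 2.99% of doxorubicin cells (1.44 to 5.42) after thinning, and an Ano4 UMI in 18.2% and 5.07%. The erythroid-like shares were 1.92% and 0% for Pgr and 5.77% and 3.45% for Ano4, and the doxorubicin shares lay near these. The share of this cell type was itself lower with doxorubicin (5.34%), doxorubicin+AMH (6.62%) and AMH alone (6.65%) than in control (7.84%), and the part of this and of the markers in these differences was not tested.

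Among the higher genes of these cells, Cdkn1a had 126 CPM in doxorubicin, of which 10 cells gave 52.5% of the UMIs. Phlda3 had 33.4 and 66.1 CPM, Nupr1, a stress-induced chromatin protein, 159 and 286 CPM, Crip1 252 and 449 CPM, and Mndal, an interferon-inducible protein, 36.8 and 71.8 CPM. Nupr1 and Mndal share transcript sequence with 2 and 4 other genes of the files.

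Blood endothelial-like cells had the lowest median of the p53 targets, with Ccng1 at 11.3 and 30.1 CPM, Cdkn1a at 67.6 and 111 CPM and Trp53inp1 at 17.7 and 30.4 CPM as the members past the fold, and 0.3% of all genes past it. With each cell weighted equally Cdkn1a and Trp53inp1 were under the fold, at log2 ratios of 0.27 and 0.26. With doxorubicin+AMH Cdkn1a had 80.7 CPM and with AMH 69.9 CPM. Fabp4 had 369 and 1125.3 CPM and the fatty acid transporter Cd36 49.3 and 103 CPM, but 10 cells gave 99.7% and 96.5% of their doxorubicin UMIs, and both were under the fold with each cell weighted equally (0.44 and 0.04). Hist1h2bc had 49.9 and 86.0 CPM.

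Cell cycle genes had lower medians in the endothelial sum, but not with each cell weighted equally. Of 25 G2/M genes 4 were past 1.5-fold lower (median -0.29) and of 18 S phase genes 2 (median -0.35), against 0.915% of all genes. Mki67 had 165 and 93.3 CPM and Top2a 246 and 178 CPM. The share of Mki67-positive cells was 10.1% (6.16 to 15.3) in control and 11.4% (6.5 to 18.0) in doxorubicin after thinning, so the lower sum was not seen in the number of cells. In doxorubicin 10 cells gave 82.9% of the Top2a UMIs. With each cell weighted equally the medians turned, to 0.24 for G2/M and 0.26 for S phase. The 6 members past the fold were then all under it: Mki67 (-0.39), Ect2 (-0.50), Tpx2 (-0.33), Bub1b (-0.22) and Mcm4 (-0.10) were still below 0, and Clspn turned to 0.55. Of 19 extracellular matrix genes 5 were past lower, 4 were above 0 and the median was -0.21. Of the collagens among them, Col1a1 had 141 and 45.0 CPM and Col3a1 221 and 101 CPM, and 10 cells gave 78.7% of the Col1a1 UMIs in control and 83.8% in doxorubicin. With the highest Scrublet (doublet) scores removed the log2 ratio of Col1a1 turned from -1.54 to 0.05 and that of Col3a1 went from -1.09 to -0.26. Stroma markers in the gate summed to 487 and 256 CPM, and the part of stromal RNA in this was not tested.

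**Figure D5:**
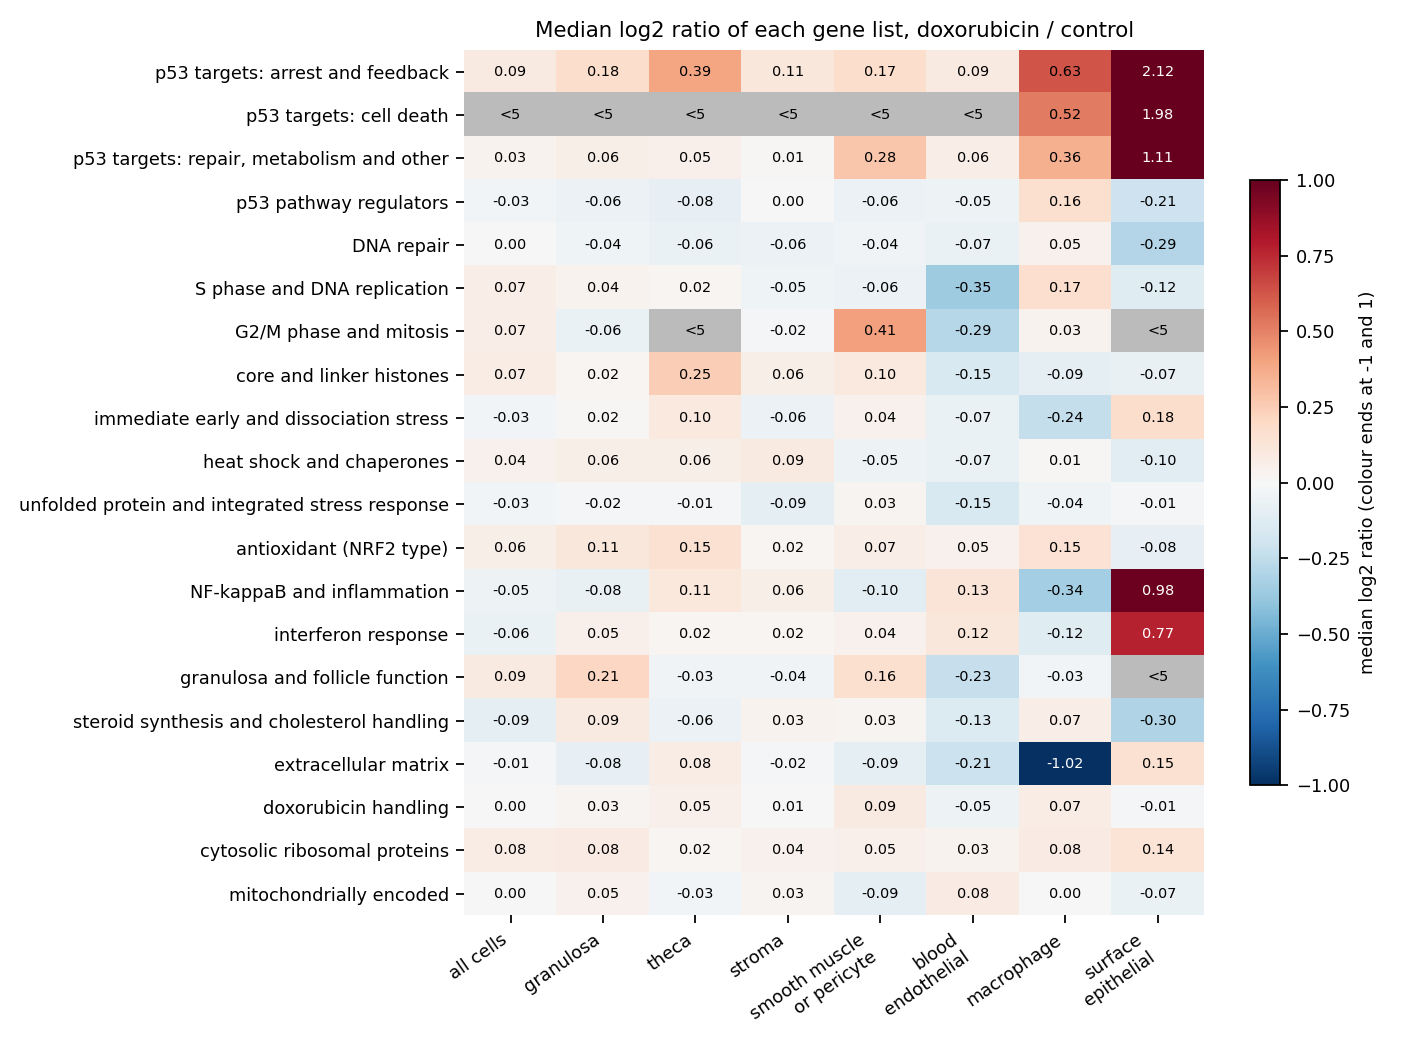
Median log2 ratio of doxorubicin to control for each of the 20 gene lists (down) in all cells and in the 7 cell types (across); grey cells mark lists with under 5 measured genes. The p53 target lists of surface epithelial-like cells stand highest, at 2.12, 1.98 and 1.11, and extracellular matrix in macrophage-like cells lowest, at -1.02.

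Over all cells the other lists lay close to the median of all genes. The p53 pathway regulators had a median of -0.03 (9 genes), DNA repair 0.00 (13), S phase 0.07 (14), G2/M 0.07 (20), immediate early and dissociation stress genes -0.03 (20), mitochondrially encoded genes 0.00 (13) and doxorubicin handling 0.00 (8). None of these had a member past the fold, where 0.185% of all genes were past higher and 0.44% lower. The 28 cytosolic ribosomal protein genes were all above 0, with a median of 0.08. In the histone list, Hist1h2ap had 52.2 and 25.0 CPM over all cells.

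Ratios differed between short and long genes. Over all cells, the 684 measured genes spanning under 5 kb had a median log2 ratio of 0.06, and the 114 genes spanning over 500 kb -0.16, of which 84.2% were below 0. In doxorubicin over control the long genes had the lower median in each of the 7 types, with 0.11 and -0.22 in macrophage-like cells, 0.09 and -0.18 in granulosa-like cells and 0.03 and -0.03 in blood endothelial-like cells, where the gap was smallest. For doxorubicin+AMH over AMH the all-cell medians were 0.08 and -0.11, but surface epithelial-like cells went the other way, at -0.03 and 0.20. For AMH over control, with no doxorubicin on either side, the all-cell medians were 0.00 and -0.16, with the other order in theca-like cells (-0.08 and -0.02) and blood endothelial-like cells (-0.07 and 0.06).

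Beside those given above, Wnt4 shares transcript-end sequence with 7 other genes of the files, Aen with 9, Klk1 with 6, Fn1 with 3, Hist1h2ae with 18, Dcpp3 and Sparc with 2 each, and Emb, Apaf1, Ly6c2 and Cd209f with 1 each, so their counts are uncertain. Of the named genes, Glis3, Mndal and Nlgn1 overlap another gene on the same strand. Rasl10a, Dcpp3, Plet1, Ecrg4, Emb, H2-Eb1, Mecom, Glis3, Ctnna2, Vcam1, Pde10a, Grm7, Lsamp, Ank2, Nlgn1, Fcna, Ei24, Lama2 and Edn1 have an antisense gene in the annotation. Whether counting used strand was not given in the sources used here.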

How the data were processed

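Ovary cells were profiled as 3' single-cell RNA libraries, 1 a group, aimed at 10000 cells each per the labels' protocols. What the authors deposited are raw UMI counts for each gene in each called cell; per the file headers, Cell Ranger 7.0.0 wrote them. The submitters' processing notes name mm10, R 4.2.0 and Seurat 4.1.0 without their roles. The annotation and the intron setting were not given in the sources used here. Coordinates are those of GENCODE vM21 (GRCm38), which matched 32158 of 32285 gene IDs.

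The cell filter (1000 UMIs or more, mitochondrial share up to 20%) left 177237504 control and 141619921 doxorubicin UMIs. Scripts used Python 3.11.15, numpy 2.4.6, scipy 1.17.1, pandas 2.3.3 and scanpy 1.11.5. For each of 16 marker lists, each marker's log-normalised level was divided by the mean of its top 1% of cells, and levels were averaged per cell. A cell took the highest list if its score was at least 0.2 and 1.5 times the next, with at least 3 markers seen. These limits were set after seeing the data; 824 control (9.59%) and 627 doxorubicin cells (9.79%) lay within 10% of one. Every type kept had own markers and no other type's markers among its 10 genes highest by fold. Types with at least 50 cells in both libraries were compared, and erythroid-like cells served for free RNA only. Doublets were left in, since Scrublet called 0 and 1 cells and had thus not worked; removing its highest scores (590 and 328 cells) is an alternative.

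CPM were computed per sum, and log2 ratios add 5 CPM to each side; genes whose mean over both libraries was under 20 CPM were left out. The 89 gate markers and mt- genes were left out (mt- genes enter only as their own list). A gene was counted past the fold at 1.5-fold. Intervals are exact (Poisson for sums, conditional binomial for ratios, Clopper-Pearson for shares). Shares of cells with a UMI use cells thinned to 2000 UMIs. The calculation was checked on simulated counts.

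Named genes are the 12 highest and 12 lowest over all cells, the 4 highest and 4 lowest within a type (mean of at least 50 CPM), up to 4 members of each of 20 lists, and Cdkn1a, Mdm2, Ccng1, Bax, Trp53, Amh and Top2a, leaving out gate markers and unnamed gene models; values of such genes in other types and the few genes marked as such were chosen after their values were seen. One gene that the rule names is not reported here. The libraries, lists and markers were chosen with earlier results of these data known. Shared sequence means 60 identical bases within the last 500 of a transcript.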

Additional observations from a re-analysis of the deposited data

Results flagged for a closer look

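Some gene lists had median log2 ratios on opposite sides of 0 in the 2 comparisons of doxorubicin that share no library, doxorubicin over control and doxorubicin+AMH over AMH. With 1 library a group, none of these differences was tested. Those given are lists with at least 5 measured genes and both medians at least 0.1 from 0, in types with at least 50 cells in every library. Surface epithelial-like cells, with 36 in doxorubicin+AMH, missed that number; there NF-kappaB and inflammation had 0.98 and -0.23, S phase -0.12 and 0.16, steroid synthesis -0.30 and 0.23, extracellular matrix 0.15 and -0.20 and ribosomal proteins 0.14 and -0.31. In blood endothelial-like cells the S phase and DNA replication list (18 genes) had a median of -0.35 in doxorubicin over control and 0.13 in doxorubicin+AMH over AMH. In macrophage-like cells the interferon response list (17 genes) had -0.12 and 0.41, and the extracellular matrix list (12 genes) -1.02 and 0.20. In smooth muscle or pericyte-like cells the NF-kappaB and inflammation list (8 genes) had -0.10 and 0.12. Of these medians in doxorubicin over control, the S phase median of blood endothelial-like cells turned to 0.26 with each cell weighted equally, and the interferon median of macrophage-like cells to 0.03 with the highest Scrublet scores removed.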

How the results depend on the processing

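The median of all p53 targets in each type and the ratios of Cdkn1a, Mdm2, Ccng1 and Bax kept their direction under every alternative run. Gaps that lay within their counting intervals changed sign: the stroma-like share (0.17 percentage points) to -0.49 with at least 500 UMIs and -0.53 with the highest Scrublet scores removed, and blood endothelial-like cells with a Cdkn1a UMI (1.17) to -1.66 with at least 2 UMIs. Of 185 values of named genes past the fold (a gene in a type), 131 were past it under every alternative and 7 changed sign under at least 1; weighting each cell equally put 31 under the fold, removing the highest Scrublet scores 20 and the stricter gate 17 of 160. The log2 ratio of Cdkn1a moved by more than its counting interval in 14 of 80 recomputations, that of Ccng1 in 6, that of Mdm2 in 2 and that of Bax in 1, most with a pseudocount of 1 CPM or equal cell weights; with equal weights Cdkn1a was 1.75 in all cells (2.00 as reported), 2.21 in stroma-like (2.58) and 0.27 in blood endothelial-like cells (0.68). In blood endothelial-like cells, equal weights turned Clspn to 0.55, Hist1h2ae to 0.044 and the medians of S phase to 0.26, G2/M to 0.24, histones to 0.18, NF-kappaB to -0.11 and interferon response to -0.11; a minimum of 50 CPM turned the histones to 0.028, no minimum the follicle list to 0.057, and removing the highest Scrublet scores the steroid list to 0.024 and Col1a1 to 0.051. In macrophage-like cells, equal weights turned Hells to -0.15 and Gja1 to -0.055, removing the highest Scrublet scores Gja1 to -0.46 and the interferon median to 0.032, and the stricter gate Hist1h1b to -0.17, Inhba to -0.14 and the S phase median to -0.015 (also -0.015 with a minimum of 50 CPM). In surface epithelial-like cells the S phase median turned to 0.050 with equal weights and DNA repair to 0.11 with a minimum of 50 CPM, and in smooth muscle or pericyte-like cells the arrest and feedback list to -0.052 with that minimum. Counts of genes past 1.5-fold follow the minimum level. Without the minimum they were 41 higher and 255 lower in all cells, 14 and 12 in granulosa-like, 76 and 34 in theca-like, 58 and 28 in stroma-like, 88 and 350 in smooth muscle or pericyte-like, 138 and 254 in blood endothelial-like cells, 1053 and 1690 in macrophage-like cells and 575 and 816 in surface epithelial-like cells. With a minimum of 50 CPM they were 4 and 7 in all cells, 7 and 9 in theca-like, 16 and 53 in smooth muscle or pericyte-like, 7 and 16 in blood endothelial-like cells, 96 and 127 in macrophage-like cells and 133 and 68 in surface epithelial-like cells, with 0 higher in granulosa-like and 11 higher in stroma-like cells. With each cell weighted equally, 15 were higher in granulosa-like cells, 26 lower in theca-like cells, 374 lower in surface epithelial-like cells, 141 higher and 162 lower in blood endothelial-like cells, and 609 and 708 in macrophage-like cells, and the p53 target median of granulosa-like cells was 0.22. With a pseudocount of 1 CPM, 9 were lower in granulosa-like, 10 lower in stroma-like, 52 higher in smooth muscle or pericyte-like and 44 higher in blood endothelial-like cells. A stricter gate gave 20 lower in granulosa-like and 57 higher in smooth muscle or pericyte-like cells, and a gap in the granulosa-like share of 3.52 percentage points in place of 4.94. A limit of 10% mitochondrial UMIs gave 22 lower in theca-like cells, and removing the highest Scrublet scores 34 higher in blood endothelial-like cells. Equal weights of cell types, which leave out oviduct-type cells, gave 8 lower in all cells. The gap in cells with a Cdkn1a UMI, thinned, was 6.86 percentage points in all cells, 4.40 in granulosa-like, 6.51 in theca-like, 10.7 in stroma-like and 47.6 in surface epithelial-like cells; unthinned it was 12.1, 15.6, 18.8, 14.7 and 22.7, and with at least 2 UMIs 4.75, 1.14, 2.48 and 7.67 in the first 4. The cause of these moves was not tested beyond what each alternative does by construction.

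No paired analysis was possible because each group is 1 library. Depth limits the macrophage-like, surface epithelial-like and blood endothelial-like sums most, and several of their genes rest on 10 or fewer cells. No leave-one-out was possible, and differences between animals, dissections and library preparations cannot be told apart from treatment.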

Other observations

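Among the 10 genes highest in cells that reached no gate call were Cfd, Car3, Scd1 and Fabp4, which fat cells express. The rest of the 10 were the MHC class II genes H2-Ab1, H2-Aa, H2-Eb1 and Cd74, with Ccl5 and Syt1. In cells without a gate call, Cfd, the adipocyte serine protease adipsin, had 4 UMIs in the control library and 3055 in the doxorubicin library. Of the latter, 1 doxorubicin cell gave 60.1% and 10 cells 99.8%. Neutrophil-like cells numbered 1 in control and 5 in doxorubicin, and B lymphocyte-like cells 9 and 7. No cell met the luteal gate in either library. Taken as 3 cells of the library's total, a count of 0 allows a share of up to 0.0349% in control and 0.0468% in doxorubicin.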
